A study of Mus musculus with 20 samples.

Results

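The distal phalanx of digit 2, the segment that carries the nail, was compared with the middle phalanx of the same digit in mouse embryos. The comparison used 8 of the 20 RNA sequencing libraries of the series, 4 of the digit 2 distal phalanx and 4 of the digit 2 middle phalanx, chosen by their labels alone. Each element was sampled at embryonic day 16 (E16) and embryonic day 17 (E17), in the forelimb and in the hindlimb, with 1 library for each combination of stage and limb. The other 12 libraries came from the proximal phalanx of digit 2 and from the distal and proximal phalanges of digit 1, which has no middle phalanx.

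The labels used here name no treatment beyond timed mating, no mutation and no strain. Each library pooled tissue of 20 embryos when taken at E16 and of 10 when taken at E17, so values are averages over animals and no combination was replicated. The p-values below therefore set the distal-middle difference against the spread left among all 20 libraries once element, stage and limb are fitted, and do not measure how litters vary. Stage cannot be told apart from pool size or from the count table in which a library was deposited.

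A phalanx taken whole can hold skin, nail, cartilage, bone, tendon, vessels and blood, and all of them can contribute to its RNA. The nail is an epidermal plate made by the nail matrix, whose cells fill with hard keratins that keratin-associated proteins crosslink into a rigid material. The distal phalanx also differs in its skeleton, because its tip ossifies directly beneath the nail while the shafts of the other phalanges ossify through a cartilage template, and because a middle phalanx borders a joint at both ends whereas a distal one borders a joint only at its base. Bone morphogenetic proteins (BMPs), Wnt proteins and the Msx transcription factors are known to act in the nail and the digit tip.

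The sequences just upstream of 8 hard keratin and Krtap genes are shown first, because they were higher in the distal phalanx and most of them carry the same short element near the start of transcription. Each line gives 80 bases ending 1 base before the annotated start, 5′ to 3′ on the gene's strand, from the RefSeq annotation of build GRCm38.p6, with the letters TATAAA, the core of a TATA box, in capitals. Krt84 and Krt36 code for hard keratins of the nail, Krt31 and Krt34 for hard keratins best known from the hair cortex, and the Krtap genes for keratin-associated proteins.
Krt84, chr15:101532821-101532900, minus strand: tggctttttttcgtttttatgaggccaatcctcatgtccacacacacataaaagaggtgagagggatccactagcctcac
Krt36, chr11:100105627-100105706, minus strand: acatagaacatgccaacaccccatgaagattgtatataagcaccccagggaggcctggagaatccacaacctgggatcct
Krt31, chr11:100050552-100050631, minus strand: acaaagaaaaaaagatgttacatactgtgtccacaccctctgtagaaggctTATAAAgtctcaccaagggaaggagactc
Krt34, chr11:100041555-100041634, minus strand: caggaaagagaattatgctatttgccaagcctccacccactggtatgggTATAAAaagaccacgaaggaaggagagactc
Krtap3-1, chr11:99566631-99566710, minus strand: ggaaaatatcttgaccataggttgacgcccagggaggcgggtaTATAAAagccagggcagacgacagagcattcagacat
Krtap3-2, chr11:99556854-99556933, minus strand: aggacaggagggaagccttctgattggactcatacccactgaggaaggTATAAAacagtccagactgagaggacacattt
Krtap8-1, chr16:89487953-89488032, minus strand: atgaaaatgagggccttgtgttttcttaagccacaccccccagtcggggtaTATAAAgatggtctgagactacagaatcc
Krtap11-1, chr16:89571184-89571263, minus strand: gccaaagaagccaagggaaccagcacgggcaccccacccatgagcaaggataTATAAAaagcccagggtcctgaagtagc

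Of the 41 hard keratin and Krtap genes listed, 30 had an entry in the promoter table, and 24 of these (80%) held TATAAA in the 60 bases before the start, counted on either strand. Over all 27025 genes of that table the share was 4.21%, and over the 11617 tested genes with an entry it was 2.41%. In 6 of the 8 sequences shown, TATAAA begins 28 to 37 bases before the start. Krt84 and Krt36 do not hold those exact letters in the window. These genes lie in clusters of related copies, so the promoters are not independent of each other, and a match of letters is a description, not a shown binding site.

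The distal and middle phalanges differed in many genes. Of 14872 genes that reached 1 CPM (the usual unit of counts scaled to library size) in 4 or more of the 20 libraries, 2424 (16.3%) were higher and 2496 (16.8%) lower in the distal phalanx at a Benjamini-Hochberg adjusted p under 0.05 in edgeR's quasi-likelihood test. At least a 2-fold difference was found for 634 of the higher and 858 of the lower genes, and at least an 8-fold difference for 136 and 61. In 1307 genes (8.79%) the 4 distal libraries all lay above the 4 middle ones, and in 1551 genes (10.4%) all lay below. These are the backgrounds against which the counts for gene groups below are read. With library totals alone as the scaling, 1855 genes were higher and 3053 lower, which shifts the share of higher calls from 49.3% to 37.8%.

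Total counts of the 8 libraries ranged from 70871735 to 111204552, and counts of the 10 most abundant genes took between 4.81% and 9.39% of a library. Matched distal and middle libraries stood 0.903 to 1.04 apart (root mean square difference of log2 CPM over the tested genes), whereas matched middle and proximal libraries of digit 2 stood 0.524 to 0.556 apart. Libraries of different stage or limb were 0.486 to 0.875 apart within the distal and 0.457 to 0.872 apart within the middle phalanx, below the distances of the distal-middle pairs. CPM values below are scaled by trimmed mean of M values (TMM) factors and are given in the order E16 forelimb, E16 hindlimb, E17 forelimb and E17 hindlimb. Fold changes are log2 of distal over middle with their standard error (SE) from the fit.

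Defining markers of cartilage and skin were present in both elements. Col2a1, the main collagen of cartilage, stood at 188, 444, 88.5 and 117 CPM in the distal and 583, 636, 156 and 150.2 CPM in the middle libraries, so the elements overlapped. Krt5, a keratin of basal epidermis, stood at 2751, 3054, 3783 and 3599 CPM against 2493, 2183, 3683 and 3641 CPM and did not pass the test (log2 fold change 0.16 ± 0.12, adjusted p = 0.311). Genes of basal and suprabasal epidermis together took 2.79% to 5.66% of the counts in distal and 2.03% to 5.97% in middle libraries. Both E16 pairs had the higher share in distal (3.43% against 2.74% and 2.79% against 2.03%) and both E17 pairs the lower (5.66% against 5.97% and 4.53% against 5.13%). The part of this share in the results below was not tested.

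Hard keratins were among the largest differences. Krt84 stood at 5222, 4305, 6506 and 6905 CPM in the distal libraries. In the middle libraries it stood at 66.5, 72.95, 29.2 and 19.7 CPM, so the elements were far apart in every pair (log2 fold change 6.79 ± 0.80, adjusted p = 4.7e-06). Krt36 followed the same pattern, at 3874, 3091, 4512 and 4415 CPM against 44.9, 65.3, 23.7 and 23.2 CPM (log2 fold change 6.65 ± 0.65, adjusted p = 6.97e-07). Krt35, a hard keratin of the nail and hair matrix, stood at 426, 419, 532 and 490.3 CPM against 5.14, 6.77, 5.51 and 3.98 CPM (log2 fold change 6.42 ± 0.45, adjusted p = 3.02e-08). These 3 genes were even across the 4 distal libraries, where the highest value was 1.6, 1.46 and 1.27 times the lowest for Krt84, Krt36 and Krt35.

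Other hard keratins were uneven across the same libraries. Krt85, a type II hard keratin of the matrix, stood at 687, 245, 1202 and 723 CPM in distal and at 4.19, 2.03, 1.44 and 0.294 CPM in middle libraries (log2 fold change 8.27 ± 1.20, adjusted p = 4.16e-05). Krt31 stood at 228, 41.2, 582 and 210.1 CPM in distal libraries against no more than 1.14 CPM in a middle library (log2 fold change 9.01 ± 1.24, adjusted p = 2.39e-05). Krt81 had no count in any middle library and stood at 77.05, 6.86, 360 and 70.96 CPM in the distal ones, so it was at least 13250-fold higher against a floor of 3 counts over the middle group, and at least 5562-fold without the E17 forelimb distal library. Every one of these was highest in the E17 forelimb and lowest in the E16 hindlimb library. The ratio of those 2 libraries was 4.9 for Krt85, 14.1 for Krt31 and 52.5 for Krt81.

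That order held across the family. All 38 Krtap genes of the joined tables had a count in a distal library, and 35 had at least 100 counts over the 4. In all 35 the E17 forelimb library was the highest and no library was below the E16 hindlimb one, with which the E17 hindlimb tied at 0 counts in 2 genes, and 27 of them had no count in the middle libraries. Krtap13 differed from the others in being abundant in the middle phalanx, at 665, 285, 1170 and 908 CPM in distal and 67.5, 53.8, 566 and 397 CPM in middle libraries. Of 15 hard keratins with at least 100 distal counts, 13 were highest in the E17 forelimb and 13 lowest in the E16 hindlimb library. There is 1 library for each stage and limb, so this order rests on single libraries. Krtap1-5, for example, stood at 8.19, 0.314, 119 and 6.47 CPM in the distal libraries and had no count in the middle ones.

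**Figure D1:**
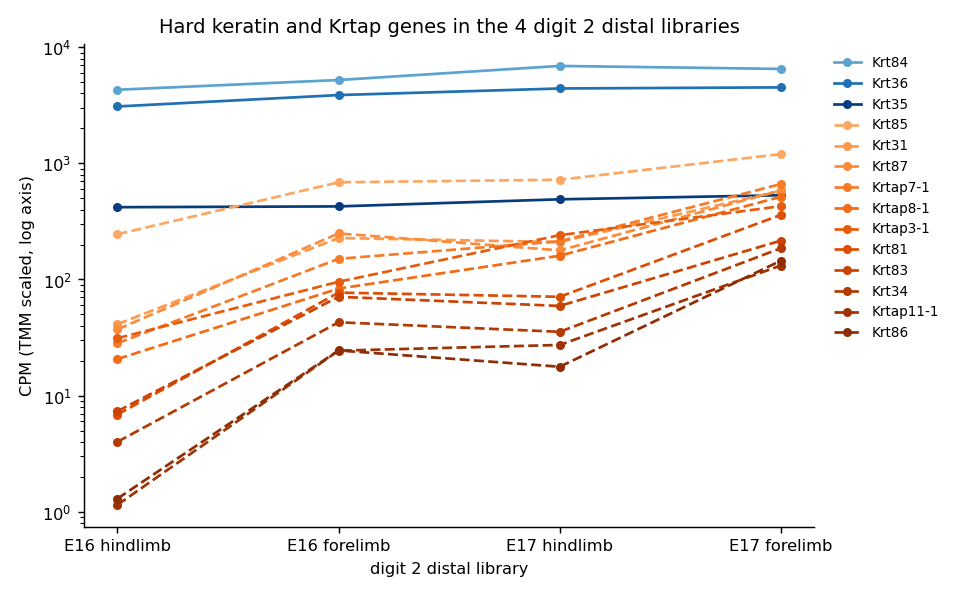
CPM (log axis) of 14 hard keratin and Krtap genes in the 4 digit 2 distal libraries, with 1 library per stage and limb and 1 line per gene. The 3 blue genes (Krt84, Krt36 and Krt35) are nearly level, and the 11 orange ones are lowest in the E16 hindlimb and highest in the E17 forelimb library. Levels are not corrected for gene length, so heights of different genes are not to be compared.

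Of the listed type I hard keratins 7 of 8 tested were higher, of the type II ones 6 of 6, and of the keratin-associated proteins 7 of 7. These counts carry little weight, because 10 of the 21 tested members lay under 1 CPM in all 4 middle libraries and entered the test only through libraries where they are high. The list of keratin-associated proteins has 25 members, of which 21 were in both count tables and 14 of those failed the filter. Krtap8-1, at 83.5, 20.6, 515 and 160.2 CPM in distal libraries and without a count in the middle ones, was at least 20470-fold higher, and Krtap11-1 at least 4778-fold higher. Without the E17 forelimb distal library these bounds were 9964 and 1936. Krt32, a cuticle keratin of hair, was the tested hard keratin that did not pass, at 1.25, 1.61, 5.13 and 3.81 CPM against 1.96, 3.55, 5.17 and 10.1 CPM. Krtap genes and the hair-type keratins are near copies of each other, so how reads fall on any single member is uncertain.

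Krt84 and Krt36 were higher in the middle than in the proximal phalanx. They were the 1 of 6 type II and the 1 of 8 type I hard keratins that passed the test in this direction. Type I hard keratins took 0.362% to 0.568% of the counts in distal, 0.00401% to 0.00807% in middle and 0.000893% to 0.00186% in proximal libraries of digit 2. Krt84 averaged 1.24 ± 1.72 CPM (SD, n = 4) in the proximal phalanx against 47.1 ± 26.5 CPM in the middle one (middle over proximal log2 fold change 5.61 ± 0.82, adjusted p = 0.000743). Krt36 averaged 1.75 ± 1.66 CPM (SD, n = 4) against 39.3 ± 20.1 CPM (middle over proximal 4.78 ± 0.64, adjusted p = 0.000371). Krt31 did not pass, at 0.629 ± 0.170 CPM (SD, n = 4) in the proximal and 0.518 ± 0.451 CPM in the middle phalanx, and the summed share of the Krtap list was 0.00962% to 0.0802% in proximal and 0.0057% to 0.0556% in middle libraries. Whether part of the nail fold was collected with the middle phalanx was not tested.

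Proteases and inhibitors of the upper epidermis were among the genes at 0 in the middle libraries. Klk15, a kallikrein protease, stood at 9.83, 0.969, 44.8 and 13.2 CPM in distal libraries and was at least 1798-fold higher. Klk14, a kallikrein that cleaves the links between corneocytes, stood at 9.25, 3.83, 12.7 and 8.29 CPM and was at least 881-fold higher. Spink6, an inhibitor of kallikreins, stood at 4.74, 0.532, 33.6 and 16.8 CPM and was at least 1506-fold higher. Gprc5d, an orphan receptor known from hard keratinising cells, stood at 11.3, 0.246, 43.1 and 9.91 CPM and was at least 1667-fold higher. Without the E17 forelimb distal library the bounds were 890.0 for Klk15, 746 for Klk14, 876 for Spink6 and 773 for Gprc5d. Like the uneven hard keratins, all 4 were highest in the E17 forelimb and lowest in the E16 hindlimb library.

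Regulators of the nail and hair matrix were higher as well, with 15 of 23 tested members higher and 1 lower (median log2 fold change 0.87, against 1.41e-05 over all genes tested). Of the 23, 2 lay under 1 CPM in all 4 middle libraries and entered the test only through other libraries. Hoxc13, a homeobox factor needed for nails and hair keratins, stood at 201, 209.7, 149.7 and 174 CPM in distal and 26.3, 23.3, 13.7 and 14.1 CPM in middle libraries (log2 fold change 3.28 ± 0.27, adjusted p = 1.54e-07). Foxn1, a forkhead factor of hair and nail whose loss underlies the nude mouse, stood at 53.9, 45.2, 67.8 and 54.4 CPM against 12.3, 13.2, 11.5 and 11.6 CPM (log2 fold change 2.17 ± 0.16, adjusted p = 6.55e-08). Neither overlapped between elements. Dlx3, a homeobox factor of the hair matrix, was higher by a log2 fold change of 1.501 ± 0.15. Foxq1, known for hair differentiation, was the member that was lower, at -1.07 ± 0.27. Lef1, the Wnt-responsive factor of the hair precortex, did not pass (log2 fold change -0.14 ± 0.16, adjusted p = 0.543) and its 4 pairs were split in direction.

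Keratins of the nail bed and of stressed epidermis were higher in 6 of 8 members, with none lower (median 1.56). Krt16, paired with Krt6 in fast-growing epidermis, stood at 601, 607, 830.3 and 1004 CPM against 17.1, 27.9, 35.01 and 62.4 CPM (log2 fold change 4.55 ± 0.30, adjusted p = 1.31e-08). Krt6b stood at 669, 591, 1042 and 1193 CPM against 73.7, 132, 125 and 192 CPM (log2 fold change 2.74 ± 0.23, adjusted p = 1.76e-07). Krt17, a nail bed and appendage keratin, stood at 837, 1025, 959.5 and 1213 CPM against 253, 471, 199 and 415 CPM (log2 fold change 1.67 ± 0.20, adjusted p = 6.86e-06), and it was also the least different of the 3. One that did not pass was Krt79, a keratin of the hair follicle opening, which stood at 0.250, 0.205, 2.43 and 0.627 CPM in distal and 0.975, 7.63, 0.811 and 41.9 CPM in middle libraries (log2 fold change -2.52 ± 0.99, adjusted p = 0.0607).

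Genes of the cornified envelope, the protein shell of dead epidermal cells, were higher in 15 of 20 tested members, with none lower (median 1.28). Of the 20, 1 lay under 1 CPM in all 4 middle libraries. Rptn, repetin, stood at 155, 19.6, 238 and 132 CPM against 0.936, 1.32, 3.19 and 3.89 CPM (log2 fold change 6.20 ± 0.82, adjusted p = 1.56e-05). Sprr1a, a small proline-rich precursor, stood at 313, 239, 727 and 583 CPM against 84.7, 79.96, 299 and 260.3 CPM (log2 fold change 1.49 ± 0.16, adjusted p = 1.63e-06). Its E16 hindlimb distal value lay below both E17 middle values, while all 4 matched pairs were higher in distal. In the list of basal and suprabasal epidermis 11 of 24 members were higher and 1 lower, with a median of 0.29. Those that rose include the desmosome genes Dsg1a (0.99 ± 0.11) and Dsc1 (1.08 ± 0.13), whereas Krt10, a keratin of differentiating epidermis, was at 6986, 4738, 20620 and 14690 CPM against 6490, 3733, 22300 and 17810 CPM and did not pass.

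**Figure D2:**
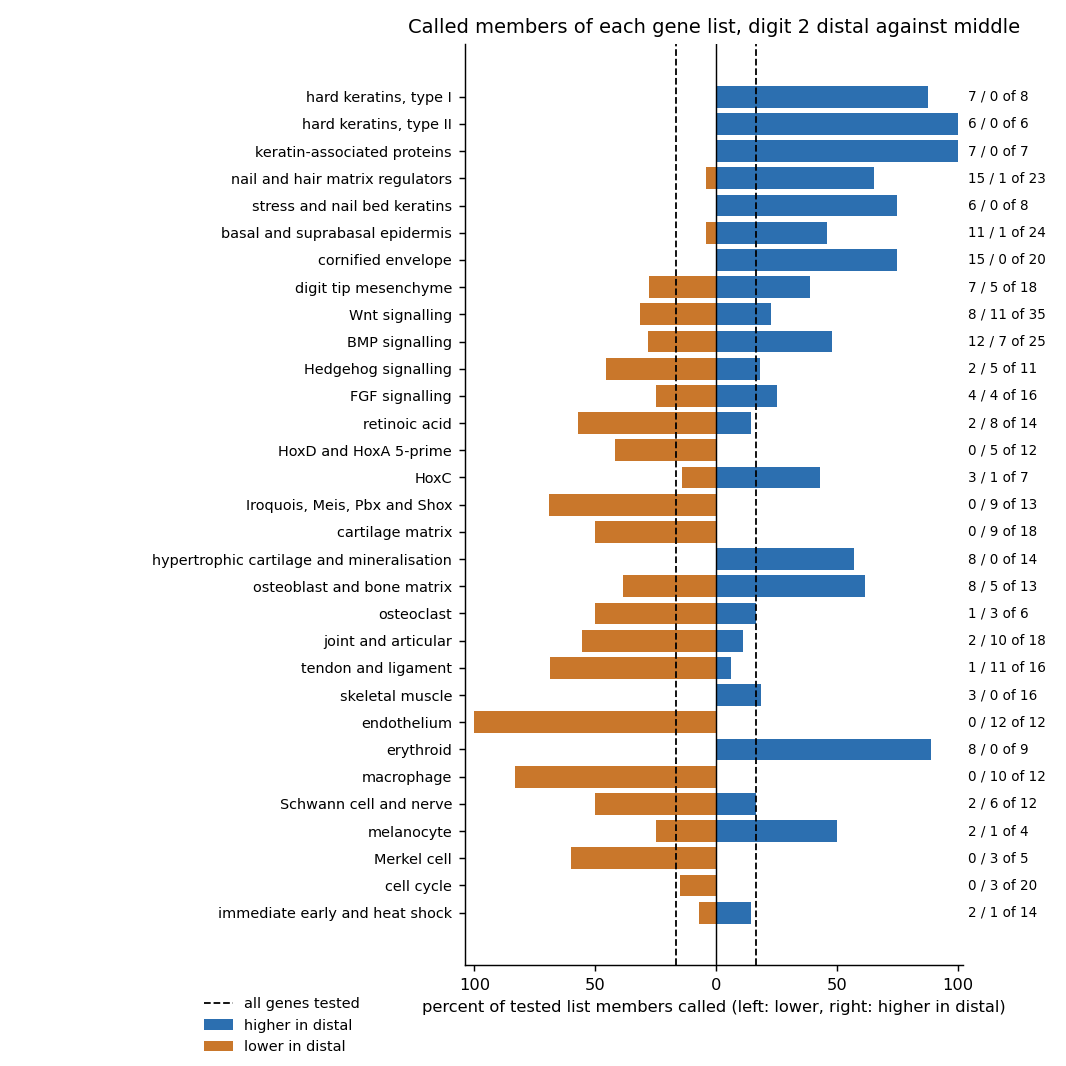
Percent of tested members of each of 31 gene lists called higher (right, blue) or lower (left, orange) in the digit 2 distal phalanx, with counts higher / lower of tested at the right edge and dashed lines at 16.3% and 16.8%, the shares over all genes tested. The hard keratin and Krtap bars rest partly on members that entered the test only through distal libraries. In the nail and hair matrix, osteoblast and skeletal muscle lists, 2 members each also lay under 1 CPM in all 4 middle libraries. Endothelium is the list with 12 of 12 members lower, of which Sox17 and Tek lost their call when some single libraries were left out.

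The Msx homeobox genes of the digit tip were higher. Msx1 stood at 414, 674, 280 and 349 CPM in distal and 86.2, 113, 49.6 and 50.3 CPM in middle libraries (log2 fold change 2.54 ± 0.15, adjusted p = 4.44e-09). Msx2 stood at 199, 244, 132 and 165 CPM against 28.7, 35.6, 19.4 and 20.2 CPM (log2 fold change 2.84 ± 0.16, adjusted p = 2.76e-09). Both were highest in the hindlimb at E16 within each element, and the elements did not overlap. Dlx5, a homeobox factor of the limb bud rim and of osteoblasts, stood at 98.1, 146, 67.8 and 86.8 CPM against 22.5, 24.5, 21.3 and 19.1 CPM (log2 fold change 2.14 ± 0.13, adjusted p = 4.44e-09). In the digit tip mesenchyme list as a whole, 7 of 18 tested members were higher and 5 lower. Hand2, a factor of the posterior limb, was among the lower ones (-1.58 ± 0.28).

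BMP pathway genes were divided, with 12 of 25 listed members higher and 7 lower (median 0.48). Among ligands, Bmp5 stood at 97.9, 135, 59.1 and 95.8 CPM in distal libraries against 11.3, 15.2, 11.8 and 9.04 CPM in middle ones (log2 fold change 3.01 ± 0.30, adjusted p = 8.99e-07). Gdf6, a ligand known for joint and skeletal patterning, stood at 29.7, 41.3, 26.1 and 29.6 CPM against 5.07, 6.32, 3.66 and 3.53 CPM (log2 fold change 2.79 ± 0.27, adjusted p = 5.9e-07). Bmp4 stood at 48.1, 83.4, 42.3 and 58.4 CPM against 22.6, 20.6, 26.5 and 19.7 CPM (log2 fold change 1.35 ± 0.22, adjusted p = 0.000118). For all 3 the lowest distal library lay above the highest middle one. Bmp8a was also higher (1.18 ± 0.12). Other ligands were lower, among them Gdf5 of the joint, Bmp3 (-1.72 ± 0.25) and Bmp6 (-1.09 ± 0.25).

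Some secreted BMP antagonists ran the other way. Grem1, gremlin 1, stood at 0.0921, 0, 0.120 and 0 CPM in distal and 3.54, 2.53, 7.66 and 3.35 CPM in middle libraries (log2 fold change -6.42 ± 0.73, adjusted p = 3.3e-06). The elements were far apart in every pair. Nbl1, a further antagonist, was also lower (log2 fold change -1.83 ± 0.22, adjusted p = 6.32e-06) and is taken up with the stage comparison. Bambi, a membrane pseudoreceptor that dampens BMP signalling and is itself induced by it, stood at 184, 209, 158 and 179 CPM against 25.9, 32.02, 32.8 and 31.2 CPM (log2 fold change 2.59 ± 0.14, adjusted p = 2.73e-09). It had the smallest p-value of all genes higher in distal.

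Wnt pathway genes were divided, with 8 of 35 members higher and 11 lower (median -0.10). Notum, a secreted enzyme that inactivates Wnt proteins, stood at 14.98, 17.1, 15.4 and 10.3 CPM against 4.27, 2.34, 3.31 and 4.22 CPM (log2 fold change 2.03 ± 0.26, adjusted p = 1.03e-05). Dkk1, a secreted inhibitor, stood at 36.7, 49.4, 25.4 and 33.8 CPM against 7.54, 11.2, 9.46 and 14.5 CPM (log2 fold change 1.74 ± 0.21, adjusted p = 6.52e-06). Rspo4, a Wnt amplifier whose loss leaves people without nails, stood at 12.03, 10.6, 7.72 and 7.10 CPM against 4.50, 1.999, 3.36 and 1.61 CPM (log2 fold change 1.69 ± 0.47, adjusted p = 0.00951). In these 3 the elements did not overlap.

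The Wnt genes that were lower include ligands, inhibitors and a target. Wnt10b, a ligand of hair placodes, stood at 18.7, 6.99, 33.6 and 16.1 CPM against 52.1, 28.1, 82.6 and 64.5 CPM (log2 fold change -1.66 ± 0.24, adjusted p = 3.87e-05), with overlap between elements but a lower distal value in each pair. Wnt11 stood at 9.82, 11.03, 10.2 and 12.9 CPM against 29.7, 34.2, 26.6 and 38.04 CPM (log2 fold change -1.54 ± 0.15, adjusted p = 7.28e-07). Sp5, a transcriptional target of Wnt signalling, stood at 0, 0.0682, 0.311 and 0.431 CPM against 11.9, 6.70, 7.53 and 6.55 CPM (log2 fold change -5.41 ± 0.81, adjusted p = 5.49e-05), the lowest fold change among genes at 5 CPM or more in one element and with a common gene symbol. Sfrp5, a secreted Frizzled-related inhibitor, and Kremen2, a receptor of Dkk proteins, had log2 fold changes of -4.12 ± 0.49 and -1.60 ± 0.17. Dkk4, a secreted inhibitor known from placodes, was lower too (log2 fold change -3.46 ± 0.42, adjusted p = 6.21e-06).

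In the Hedgehog list 2 of 11 members were higher and 5 lower (median -0.39). Ptch1, the Hedgehog receptor and a target of the pathway, stood at 309, 338, 141 and 163 CPM against 148, 150.1, 85.5 and 76.1 CPM (log2 fold change 0.996 ± 0.20, adjusted p = 0.000767). Hhip, a Hedgehog-binding inhibitor that is also a target of the pathway, was instead lower, at 22.4, 14.2, 14.98 and 10.1 CPM against 51.5, 54.4, 22.4 and 19.5 CPM (log2 fold change -1.13 ± 0.21, adjusted p = 0.000478). Gli1, a further target, did not pass (log2 fold change 0.07 ± 0.18, adjusted p = 0.807). The co-receptors Cdon, Boc and Gas1 were lower, with log2 fold changes of -1.03 ± 0.12, -1.01 ± 0.12 and -0.98 ± 0.15. The other member called higher, Ihh, the ligand of maturing cartilage, stood at 7.41, 18.4, 2.59 and 2.24 CPM against 4.19, 2.24, 0 and 0 CPM and passed narrowly (log2 fold change 2.72 ± 0.999, adjusted p = 0.044). Its adjusted p lay between 0.0624 and 0.113 when the E16 forelimb distal, either E16 hindlimb, either E17 forelimb or the E17 hindlimb middle library was left out, and was 0.0707 with each stage and limb as a block.

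In the FGF list 4 of 16 members were higher and 4 lower (median 0.07). Spry2, a feedback inhibitor of FGF signalling, stood at 17.2, 20.9, 18.3 and 20.1 CPM against 45.6, 40.9, 36.5 and 37.9 CPM (log2 fold change -1.07 ± 0.09, adjusted p = 1.01e-07). Fgf9, a ligand, was higher (log2 fold change 1.11 ± 0.26, adjusted p = 0.00276). Of the retinoic acid genes 2 of 14 were higher and 8 lower (median -0.72). The higher members, Cyp26b1 and Dhrs3, each lost their call in 4 of the 8 omissions of a library. Among the lower ones Aldh1a3 lost its call in 4 and Stra6 in 5. Rdh10, the enzyme that starts retinoic acid synthesis, stood at 30.1, 34.8, 29.4 and 36.9 CPM against 99.6, 133, 56.8 and 71.97 CPM (log2 fold change -1.37 ± 0.17, adjusted p = 6.26e-06), and Rarb, a retinoic acid receptor and target, was lower (-1.29 ± 0.23).

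Among transcription factors of limb position, none of 13 Iroquois, Meis, Pbx and Shox genes was higher and 9 were lower (median -1.24). Irx1 stood at 2.15, 3.33, 3.81 and 3.98 CPM against 37.8, 45.1, 26.2 and 45.9 CPM (log2 fold change -3.51 ± 0.33, adjusted p = 5.57e-07). Irx5 stood at 12.3, 11.4, 12.2 and 12.4 CPM against 82.9, 76.4, 50.4 and 57.1 CPM (log2 fold change -2.43 ± 0.21, adjusted p = 2.33e-07), and Shox2, a factor of the proximal limb skeleton, was lower (-2.08 ± 0.25). For all 3 the highest distal library lay below the lowest middle one.

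Of 12 HoxD and HoxA genes tested, none was higher and 5 were lower. Hoxd13, the factor of digit identity, stood at 159.6, 127, 76.4 and 70.8 CPM against 221, 204, 124 and 105 CPM (log2 fold change -0.60 ± 0.21, adjusted p = 0.0327), and it averaged 279 ± 101.9 CPM (SD, n = 4) in the proximal phalanx. That call was lost without the E16 forelimb middle, E16 hindlimb distal, E17 forelimb middle or E17 hindlimb distal library (adjusted p between 0.083 and 0.122). Hoxd11 (-0.80 ± 0.27) lost its call (adjusted p between 0.0566 and 0.132) without any 1 of the 4 distal libraries or of the 2 forelimb middle ones. Hoxd12 (-0.97 ± 0.33) lost it (0.0577 to 0.12) without the E16 forelimb middle, either E16 hindlimb, the E17 forelimb middle or the E17 hindlimb distal library. All 3 lost their calls without the E16 forelimb middle, E16 hindlimb distal, E17 forelimb middle or E17 hindlimb distal library, which left 2 members lower each time. Hoxd8 (-1.01 ± 0.21) and Hoxd9 (-1.13 ± 0.31) passed with each of the 8 libraries left out in turn. Hoxa13 did not pass (log2 fold change 0.15 ± 0.16, adjusted p = 0.524). Among 7 HoxC genes, Hoxc12 (log2 fold change 0.82 ± 0.19, adjusted p = 0.00246) and Hoxc9 (log2 fold change 0.92 ± 0.25, adjusted p = 0.00731) were higher beside Hoxc13. Hoxc6, at 0.171, 0.873, 0.299 and 0.899 CPM against 0.654, 1.15, 0.928 and 1.47 CPM, was the one lower. It was named after its values were seen, its log2 fold change was -1.001 ± 0.35 with an adjusted p of 0.0355, and that p lay between 0.0516 and 0.116 without the E16 forelimb distal, E16 hindlimb middle, either E17 forelimb or the E17 hindlimb middle library.

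Of 13 osteoblast and bone matrix genes 8 were higher and 5 lower (median 2.07). Of the 13, 2 lay under 1 CPM in all 4 middle libraries and entered the test only through other libraries. Sp7, the osteoblast transcription factor, stood at 57.2, 74.2, 34.96 and 31.9 CPM in distal and 3.37, 2.74, 3.27 and 1.94 CPM in middle libraries (log2 fold change 4.06 ± 0.29, adjusted p = 4.29e-08). Runx2, which acts upstream of it, stood at 111, 101.9, 58.8 and 50.5 CPM against 24.1, 19.1, 12.5 and 17.99 CPM (log2 fold change 2.07 ± 0.18, adjusted p = 2.38e-07). Omd, osteomodulin, a proteoglycan of mineralised matrix, stood at 194, 104.1, 159 and 121 CPM against 4.32, 3.82, 5.71 and 4.30 CPM (log2 fold change 4.98 ± 0.27, adjusted p = 2.76e-09). None of the 3 overlapped, and for Sp7 and Runx2 the distal E16 libraries lay above the distal E17 ones.

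Ambn, known as an enamel matrix protein, stood at 17.1, 9.62, 23.03 and 11.4 CPM in distal libraries and had no count in the middle ones, which makes it at least 1550-fold higher. The abundant collagens ran the other way. Col1a1 stood at 4211, 2900, 3498 and 2416 CPM in distal and 8445, 5585, 6637 and 4771 CPM in middle libraries (log2 fold change -0.96 ± 0.07, adjusted p = 6.55e-08). Col1a2 (log2 fold change -0.92 ± 0.06, adjusted p = 3e-08) and Sparc, osteonectin (log2 fold change -0.80 ± 0.06, adjusted p = 5e-08), were lower as well. These 3 are also made in skin and tendon, and Col3a1, a collagen of soft connective tissue, was lower with the smallest p of all genes, at 2068, 1944, 2111 and 2025 CPM against 4952, 4246, 5209 and 4308 CPM (log2 fold change -1.19 ± 0.06, adjusted p = 2.73e-09).

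Genes of mineralisation and late cartilage were higher in 8 of 14 members, with none lower (median 1.12). Alpl, the phosphatase needed for mineralisation, stood at 107, 116, 94.1 and 87.7 CPM against 14.8, 7.29, 15.4 and 6.41 CPM (log2 fold change 3.22 ± 0.26, adjusted p = 1.16e-07). Ibsp, bone sialoprotein, stood at 24.2, 4.16, 73.9 and 22.6 CPM against 1.56, 0.865, 5.65 and 4.25 CPM (log2 fold change 3.15 ± 0.35, adjusted p = 2.86e-06), and its E16 hindlimb distal value lay within the range of the middle libraries. Col10a1, the collagen of hypertrophic cartilage, stood at 3.02, 2.101, 4.05 and 7.35 CPM against 4.30, 5.43, 1.41 and 3.07 CPM and did not pass (log2 fold change 0.23 ± 0.49, adjusted p = 0.761). Its fitted change was -0.87 at E16 alone. Mmp9, a protease of resorbing cells, was higher (log2 fold change 2.78 ± 0.27, adjusted p = 7.12e-07), whereas Ctsk, the protease of osteoclasts, was lower (log2 fold change -0.45 ± 0.11, adjusted p = 0.00316), and 1 of 6 osteoclast genes was higher and 3 lower in all.

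Cartilage matrix genes were lower in 9 of 18 tested members, with none higher (median -0.81). Col11a1 stood at 110.3, 121, 91.9 and 80.4 CPM against 318, 296, 196 and 168 CPM (log2 fold change -1.24 ± 0.11, adjusted p = 2.21e-07). Matn4, a matrilin, stood at 28.1, 52.1, 45.4 and 51.2 CPM against 193, 193, 140.1 and 139 CPM (log2 fold change -1.86 ± 0.25, adjusted p = 1.99e-05). Neither gene overlapped. Col2a1 was lower (log2 fold change -0.85 ± 0.22, adjusted p = 0.00682) with overlap between elements across stages. Acan, the main cartilage proteoglycan, was lower (log2 fold change -0.96 ± 0.27, adjusted p = 0.0114), with an adjusted p of 0.0552 without the E16 forelimb distal library. Sox9, the factor that directs cartilage formation, did not pass (log2 fold change -0.15 ± 0.18, adjusted p = 0.574).

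**Figure D3:**
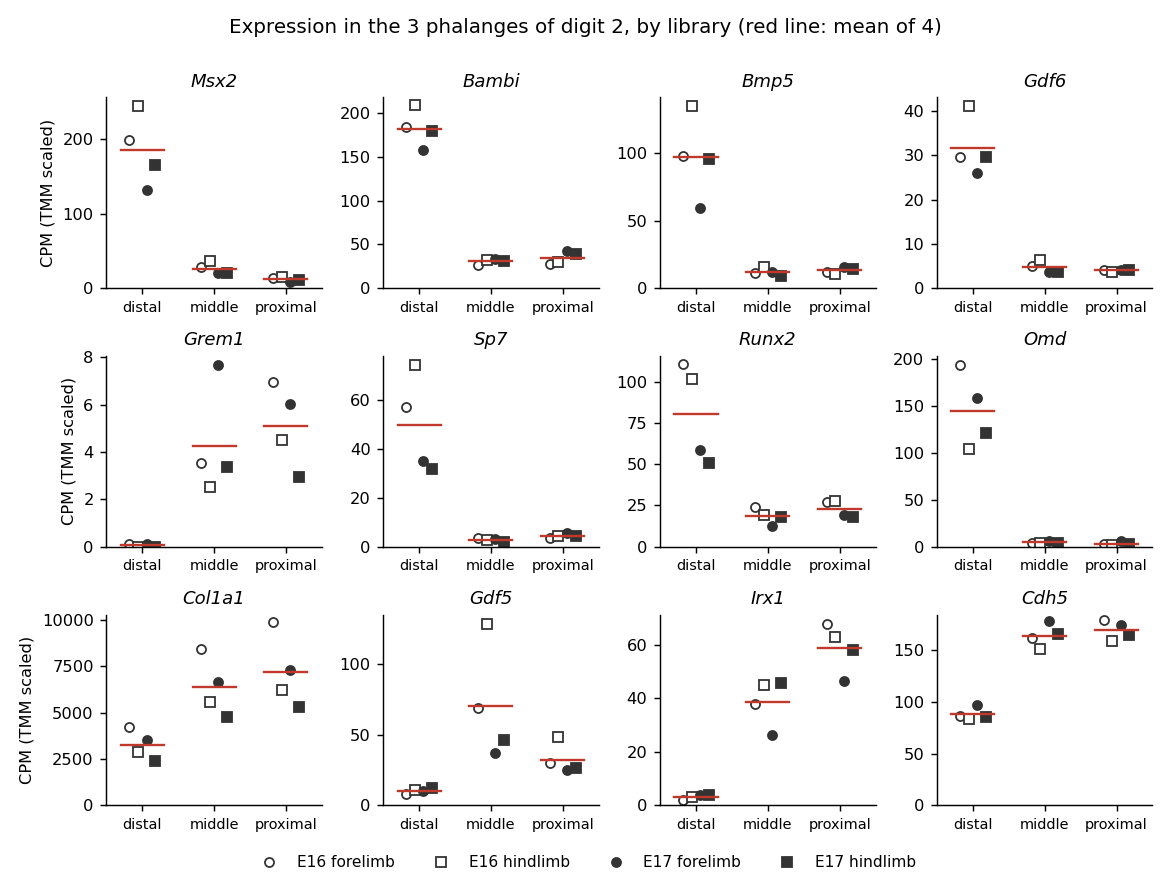
CPM of 12 genes in each digit 2 library, by phalanx; open symbols are E16, filled ones E17, circles forelimb, squares hindlimb, and the red line is the mean of 4 libraries. In every panel the distal libraries lie clear of the middle ones, above them for Msx2, Bambi, Bmp5, Gdf6, Sp7, Runx2 and Omd and below them for the other 5.

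Joint genes were lower in 10 of 18 members and higher in 2 (median -1.04). Gdf5, the ligand that marks the forming joint, stood at 7.87, 11.2, 10.3 and 12.3 CPM in distal and 69.2, 128, 36.96 and 46.5 CPM in middle libraries (log2 fold change -2.55 ± 0.33, adjusted p = 1.33e-05), and averaged 32.2 ± 10.8 CPM (SD, n = 4) in the proximal phalanx. Osr1, a zinc finger factor of joint and connective tissue, stood at 7.65, 7.48, 19.9 and 19.9 CPM against 108, 100.8, 68.2 and 70.6 CPM (log2 fold change -2.67 ± 0.31, adjusted p = 3.82e-06). Htra1, a matrix protease, stood at 161, 103, 157 and 135 CPM against 464, 421, 357 and 327 CPM (log2 fold change -1.49 ± 0.15, adjusted p = 9.64e-07). Elements did not overlap for any of the 3. The 2 higher members were Gdf6, described above, and Prg4, which codes for the joint lubricant lubricin. Prg4 stood at 1.20, 1.68, 0.802 and 1.11 CPM against 0.603, 0.270, 0.458 and 0.269 CPM (log2 fold change 1.94 ± 0.62, adjusted p = 0.0229), and its adjusted p lay between 0.0615 and 0.0866 without the E16 forelimb middle, E16 hindlimb distal, E17 forelimb middle or E17 hindlimb distal library.

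Tendon and ligament genes were lower in 11 of 16 members and higher in 1 (median -0.81). Kera, the proteoglycan keratocan, stood at 11.2, 5.50, 18.2 and 11.2 CPM against 31.4, 27.7, 70.6 and 56.4 CPM (log2 fold change -2.04 ± 0.20, adjusted p = 6.56e-07), below the 209 ± 49.5 CPM (SD, n = 4) of the proximal phalanx. Aspn, asporin, was the member that was higher, at 398, 185, 381 and 294 CPM against 101.4, 67.2, 147 and 80.5 CPM (log2 fold change 1.68 ± 0.16, adjusted p = 4.36e-07). Egfl6, a secreted protein of connective tissue and hair follicle, stood at 18.4, 20.9, 38.7 and 42.2 CPM against 168, 197, 234 and 238 CPM (log2 fold change -2.86 ± 0.17, adjusted p = 4.44e-09). Abi3bp, a matrix-binding protein, was lower (-2.65 ± 0.15), as was Lrig1, a growth factor receptor inhibitor and stem cell marker of the hair follicle (-2.78 ± 0.17).

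Vessel and blood markers moved in opposite directions. All 12 endothelial genes were lower in the distal phalanx (median -0.80), though Sox17 lost its call in 4 of the 8 omissions of a library and Tek in 3. Cdh5, the cadherin of endothelial junctions, stood at 86.8, 83.5, 97.04 and 85.1 CPM against 162, 151, 178 and 165 CPM (log2 fold change -0.90 ± 0.07, adjusted p = 6.55e-08). Endothelial genes took 0.0302% to 0.033% of the counts in distal and 0.057% to 0.0622% in middle libraries. Erythroid genes were higher in 8 of 9 tested members (median 1.19) and took 1.3% to 2.71% against 0.623% to 1.06% of the counts. Alas2, the heme enzyme of red cells, stood at 114, 111, 271 and 225 CPM against 68.8, 56.1, 72.5 and 97.5 CPM (log2 fold change 1.19 ± 0.20, adjusted p = 0.000165). In pooled tissue, fewer cells of a type and less RNA per cell cannot be told apart, and how blood left in the tissue bears on the other differences was not tested.

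Markers of other cells that a phalanx can hold were mostly lower. Macrophage genes were lower in 10 of 12 members with none higher (median -0.82), among them Adgre1, the F4/80 antigen (-1.28 ± 0.23), and Mrc1, the mannose receptor (-1.03 ± 0.21). Of 12 Schwann cell and nerve genes 6 were lower and 2 higher, with Sox10, the neural crest factor, lower (-1.23 ± 0.21) and Mbp, a myelin protein, higher (0.50 ± 0.09). Merkel cell genes were lower in 3 of 5 tested members, including Piezo2, the mechanosensitive channel of touch (log2 fold change -1.15 ± 0.20, adjusted p = 0.00024). The others were the keratins Krt8 and Krt18. The transcription factors Atoh1 and Sox2 did not pass. With 1 digit 2 distal or middle library left out in turn, Atoh1 lay between -0.11 and 1.69 and Sox2 between -0.85 and -0.15. Melanocyte genes stayed low, with 2 of 4 tested members higher and 1 lower. Dct, 1 of the 2 higher, lost its call in 5 omissions. Of the 4 members, 1 lay under 1 CPM in all 4 middle libraries. The summed share of the list ran the other way, at 0.00216% to 0.00373% in distal and 0.00363% to 0.00445% in middle libraries.

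Skeletal muscle genes were higher in 3 of 16 members with none lower (median 1.47). That share of higher calls is near the 16.3% of all genes tested. Of the 16, 2 lay under 1 CPM in every middle library and entered the test only through other libraries. The summed share of the list was 0.00665% to 0.0252% in distal and 0.00276% to 0.011% in middle libraries. Ckm, muscle creatine kinase, stood at 2.55, 1.39, 10.8 and 9.07 CPM against 0.462, 0.567, 2.17 and 4.92 CPM (log2 fold change 1.60 ± 0.44, adjusted p = 0.00878), with overlap between elements. The other called members, Mylpf and Tnnt3, lost their call in 6 and 5 of the 8 omissions of a library. Cell cycle genes were close between elements, with 3 of 20 lower, none higher and a median of -0.14. Among immediate early and heat shock genes 2 of 14 were higher and 1 lower (median 0.07), where Junb was higher (0.94 ± 0.20) and Atf3 was lower (-0.99 ± 0.18).

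Further genes with low fold changes have varied roles. Chodl, chondrolectin, a membrane lectin, stood at 4.69, 3.33, 7.08 and 5.79 CPM in distal and 110.3, 118, 105 and 122 CPM in middle libraries (log2 fold change -4.43 ± 0.45, adjusted p = 9.9e-07). Sim2, a transcription factor, stood at 0.382, 0.382, 1.52 and 1.94 CPM against 27.2, 18.9, 14.8 and 9.36 CPM (log2 fold change -3.82 ± 0.74, adjusted p = 0.000577) and averaged 1.79 ± 1.39 CPM (SD, n = 4) in the proximal phalanx. Sim2 was thus near the distal level in the proximal phalanx, while Chodl, at 128 ± 31.3 CPM (SD, n = 4), was near the middle level there.

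The next question was whether the distal-middle difference changed between E16 and E17. The difference of differences passed for 7 of 14872 genes (0.0471%), 5 of them more positive at E17 and 2 more negative, and 645 genes had an unadjusted p under 0.05. No gene called in the comparison of both stages together had opposite signs in the 2 stages. Osr1 went from a log2 fold change of -3.78 ± 0.18 at E16 to -1.80 ± 0.16 at E17 (adjusted p of the difference = 0.00975). As its values above show, distal Osr1 was higher at E17 than at E16 in both limbs, and middle Osr1 was lower. Sfrp2, a secreted Wnt inhibitor of connective tissue, went from -1.71 ± 0.13 to -0.63 ± 0.12 (adjusted p = 0.049).

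Nbl1, the BMP antagonist, stood at 27.8, 30.3, 67.4 and 55.7 CPM in distal and 179, 184, 147 and 126 CPM in middle libraries. Its difference went from -2.64 ± 0.15 at E16 to -1.15 ± 0.14 at E17 (adjusted p = 0.0307). Six2, a homeobox factor of tendon and joint, went from -2.20 ± 0.20 to -0.44 ± 0.19 (adjusted p = 0.0488), and Ripor3 from -1.65 ± 0.15 to -0.34 ± 0.14 (adjusted p = 0.0488). In these 5 genes the gap between the phalanges was narrower at E17. Lce1a2, a late cornified envelope gene, was the opposite case of a gene higher in distal, at 45.1, 10.6, 228 and 160.2 CPM against 0.103, 0, 35.6 and 18.2 CPM, with a difference of 8.89 ± 0.69 at E16 and 2.94 ± 0.40 at E17 (adjusted p = 0.0488). The Lce1 genes are near copies, so its counts are uncertain. The seventh call was AU015836, named after its values were seen, at 1.15, 0.641, 1.26 and 0.946 CPM against 0.0513, 0.0540, 2.29 and 0.895 CPM.

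These stage calls are fragile, since each stage has 2 pairs. The number of calls was 0 without the E17 forelimb middle or either E17 hindlimb library, 2 without the E16 hindlimb middle library, 3 without either E16 forelimb library or the E17 forelimb distal one, and 7, of which 4 were among the 7 above, without the E16 hindlimb distal library.

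**Figure D4:**
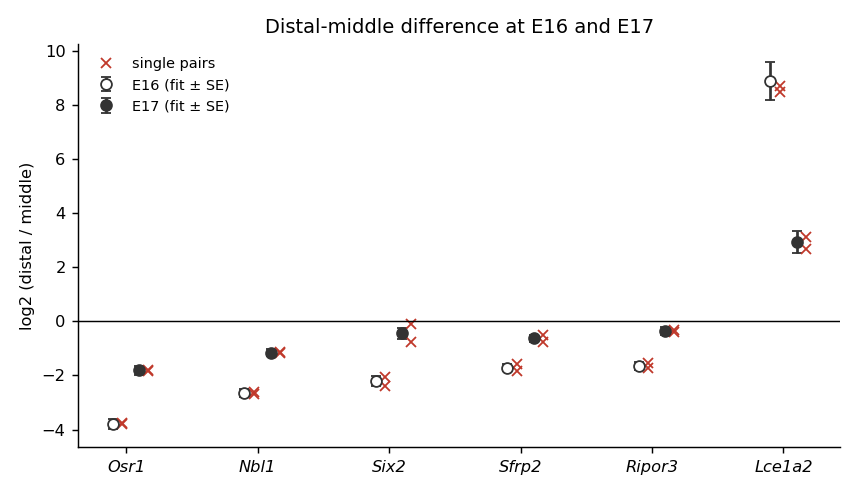
Log2 of distal over middle at E16 (open circles) and E17 (filled circles), fitted with SE bars, for 6 genes whose difference between stages passed the test, with single stage and limb pairs as red crosses. Osr1, Nbl1, Six2, Sfrp2 and Ripor3 lie nearer to 0 at E17 and Lce1a2 falls from 8.89 to 2.94.

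Between limbs, no gene passed (0 of 14872, a background of 0%), while 830 genes had an unadjusted p under 0.05 in the same edgeR test. The count was also 0 with DESeq2's size factors in edgeR and with a filter at 5 CPM. The smallest p-values include Ccl21a, a chemokine of lymphatic vessels, and Flt4, the receptor of lymphatic endothelium. Flt4 stood at 13.02, 14.1, 11.7 and 12.98 CPM in distal and 27.4, 16.7, 31.4 and 17.5 CPM in middle libraries, so that the middle forelimb values were the high ones (hindlimb minus forelimb difference 0.91 ± 0.20, adjusted p = 0.821). Krt34, at 42.8, 3.998, 186 and 35.4 CPM in the distal libraries, is another, with higher forelimb than hindlimb values at both stages (adjusted p = 0.821).

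The last joint of digit 1 lies between its distal and proximal phalanx, so the distal-proximal step of digit 1 was set against the distal-middle step of digit 2. No library enters both. The 2 steps differed for 31 of 14872 genes (0.208%), 14 of them more positive and 17 more negative in digit 2. For orientation, the fold changes of genes described above, side by side, were as follows for Krt84 (6.79 ± 0.80 in digit 2 and 8.31 ± 0.86 in digit 1), Msx2 (2.84 ± 0.16 and 2.58 ± 0.15), Sp7 (4.06 ± 0.29 and 3.38 ± 0.28) and Cdh5 (-0.90 ± 0.07 and -0.77 ± 0.07). Krt81 and Krtap8-1, uneven in digit 2, were highest in the E17 hindlimb among digit 1 distal libraries. Krt81 stood there at 0, 0.480, 0.0835 and 20.65 CPM. Krtap8-1 averaged 13.6 ± 24.8 CPM (SD, n = 4) in digit 1 distal against 195 ± 221 CPM in digit 2 distal libraries. The difference of steps did not pass for either gene (8.94 ± 7.98, adjusted p = 0.813 for Krtap8-1).

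Among the genes whose steps differed, some peaked in the middle phalanx. Nell2, a secreted neural protein, averaged 23.5 ± 6.09, 97.2 ± 21.98 and 39.5 ± 12.7 CPM (SD, n = 4) in the distal, the middle and the proximal element of digit 2, and the difference of steps was -1.65 ± 0.25 (adjusted p = 0.0123). Slc1a2, a glutamate transporter, averaged 3.13 ± 1.20, 16.1 ± 2.86 and 7.49 ± 2.77 CPM (SD, n = 4) in the same order (difference -2.12 ± 0.32, adjusted p = 0.0123). Frem1, a basement membrane protein, averaged 46.3 ± 14.7, 99.4 ± 29.4 and 56.2 ± 22.4 CPM (SD, n = 4) (difference -1.36 ± 0.21, adjusted p = 0.0123). Niban1, a stress-induced protein, had its low point there, at 62.1 ± 11.9, 30.2 ± 1.08 and 53.9 ± 12.2 CPM (SD, n = 4) (difference 1.59 ± 0.25, adjusted p = 0.0123).

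Others fell more steeply in digit 2. Pcdh10, a protocadherin, stood at 14.6, 13.7, 14.5 and 17.8 CPM in the distal and 165, 160.5, 113 and 119.8 CPM in the middle libraries of digit 2, a step of -3.16 ± 0.22, against -1.26 ± 0.21 in digit 1 (adjusted p of the difference = 0.0123). Irx5 had a step of -2.43 ± 0.21 in digit 2 and -0.96 ± 0.20 in digit 1 (adjusted p = 0.0457). Dkk4 had a step of -3.46 ± 0.42 in digit 2 and -0.06 ± 0.40 in digit 1 (adjusted p = 0.017). Mt1, a metallothionein that binds zinc and copper, had instead the larger rise in digit 2, at 2.33 ± 0.13 against 1.29 ± 0.13 (adjusted p = 0.0305). Scara5, a scavenger receptor that binds ferritin, fell less in digit 2 than in digit 1, at -0.40 ± 0.10 against -1.35 ± 0.10 (adjusted p = 0.0123).

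These calls too rest on few libraries. The count was 0 without the E16 forelimb middle library, 6 without the E17 hindlimb middle one, 12 without the E17 forelimb middle one, 13 without the E16 forelimb distal or the E16 hindlimb middle one and 14 without the E17 forelimb distal one. It was 24 without the E17 hindlimb distal library and 34, of which 21 were among the 31, without the E16 hindlimb distal one.

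**Figure D5:**
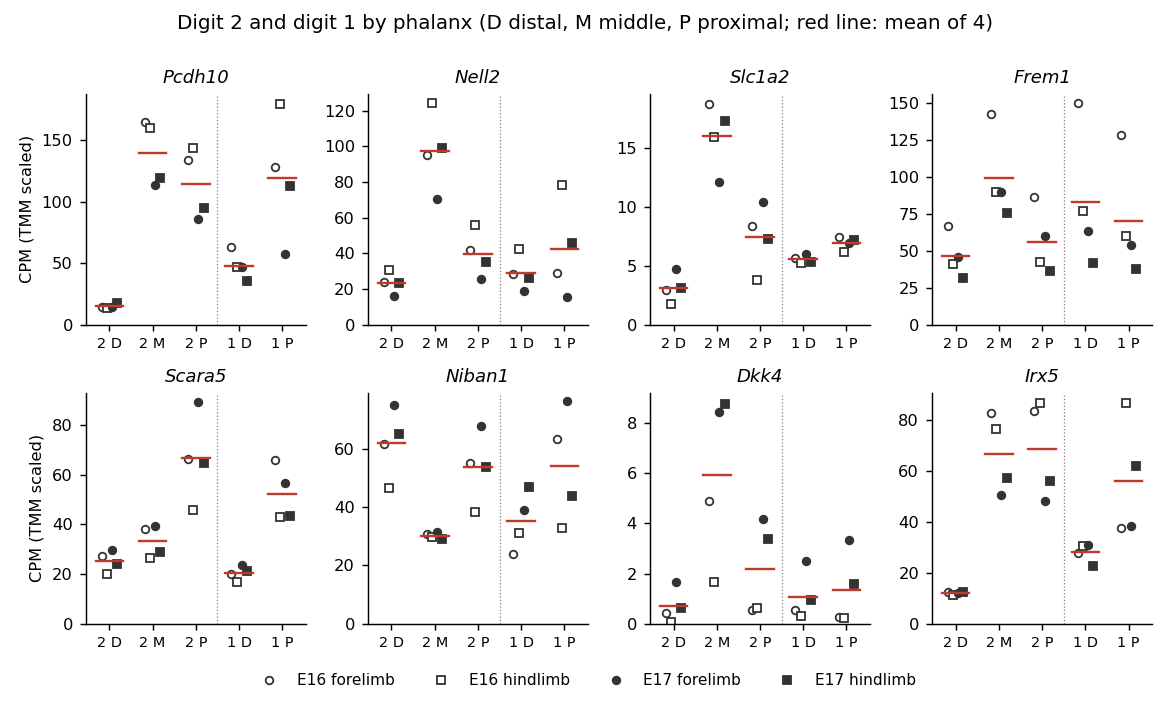
CPM of 8 genes whose last-joint step differed between digits, in each library of the 5 elements (2 D, 2 M and 2 P are digit 2 distal, middle and proximal; 1 D and 1 P are digit 1 distal and proximal); symbols mark stage and limb and the red line is the mean of 4. Nell2, Slc1a2, Frem1 and Dkk4 have their highest mean in the digit 2 middle phalanx and Niban1 its lowest.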

How the data were processed

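Gene counts of 20 mouse phalanx libraries, 1 for each stage, limb and element, were read from 2 tables deposited by the authors, 1 per stage. Per the labels' protocols, total RNA was made into libraries with a kit that does not mark strand and sequenced in pairs. Per the submitters' processing notes, HISAT2 2.2.1, StringTie 2.1.7 and build GRCm39 were used. Reads of overlapping or antisense genes therefore cannot be told apart, and the handling of reads shared by near copies is not given in the sources used here.

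The tables were joined by symbol, with 23697 symbols written alike and 58 matched through synonyms. The 23755 joined genes held 99.0% to 99.5% of each library's counts. Rows with no gene symbol (313 at E16 and 793 at E17) held 0.000494% and 0.00132% and were left out.

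Genes that reached 1 CPM in no fewer than 4 libraries were scaled by TMM and fitted over all 20 libraries with edgeR 4.0.16 (R 4.3.3, quasi-likelihood) with terms for element, stage and limb. Stage and limb differences of the contrast were interaction terms, and p-values were adjusted by Benjamini-Hochberg over all tested genes. The biological coefficient of variation was 18.5%. The code was tested on simulated data. A gene without counts in the 4 middle libraries was set against a floor of 3 counts over the group, which covers counting error only. Alternatives included DESeq2 1.42.0, other scalings and filters, subsets, matched sets as a block and leaving out 1 library. The library left out was each of the 8 digit 2 distal and middle ones in turn. Libraries were paired by labelled stage and limb; no label says that their elements came from the same embryos.

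Genes named in the text were the 12 highest and 12 lowest fold changes and 6 smallest p-values in each direction among called genes at 5 CPM or more with 4 of 4 pairs alike, up to 4 called members of each of 31 lists with up to 2 in the rarer direction, a fixed set of known nail and skeletal genes, and the 6 smallest p-values of each interaction. From these a selection is described, and values of other list members are given where the text turns on them. Some genes that the rule names are not reported here. The genes compared, lists and tests were chosen with earlier results of these data known.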

Additional observations from a re-analysis of the deposited data

Results flagged for a closer look

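Of 368 groups of 4 libraries, those with no library at 1 CPM or more were passed over, so fewer than 368 were examined. In 10 groups 1 library lay far from the other 3, by a gap divided by the range above Dixon's 95% critical value for 4 samples. Chance flags about 1 in 20 such groups. The values of 9 are given. In the distal libraries the ratio was 0.95 for the highest value of Krtap6-5, 0.839 for the highest of Krt86, 0.84 for the highest of Hoxa13, 0.935 for the lowest of Tnfrsf11a and 0.874 for the lowest of Atf3. In the middle libraries it was 0.863 for the highest value of Grp, 0.919 for the highest of Krtap3-2, 0.853 for the highest of Kdr and 0.834 for the highest of Krt79.

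The distal-middle difference itself differed between stages, by a tested interaction on the log2 scale (E17 minus E16), by 1.98 for Osr1, 1.49 for Nbl1, 1.76 for Six2, 1.31 for Ripor3, 1.08 for Sfrp2 and -5.94 for Lce1a2. The digit 2 step minus the digit 1 step, also tested, was -2.59 for Shisa9, -3.4 for Dkk4, -1.47 for Irx5, -1.65 for Nell2, -2.12 for Slc1a2, -1.89 for Pcdh10, -1.36 for Frem1, 1.03 for Mt1, 0.96 for Scara5 and 1.59 for Niban1.

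Krt40, a hard keratin whose symbol appears in the E16 table alone and which therefore entered no test, had 11 counts in the 2 E16 distal libraries of digit 2 and 0 in the middle ones.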

How the results depend on the processing

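Against 2424 genes higher and 2496 lower, counts stayed within 1.5 times with DESeq2 (2689 and 2573), its size factors in edgeR (2548 and 2413), library totals (1855 and 3053), no filter on low counts (2288 and 2372), a 5 CPM filter (2145 and 2127) and forelimb libraries alone (1972 and 1940). They moved further when tested against a 1.5-fold change (571 and 704), with E16 libraries alone (1527 and 1604), E17 alone (1062 and 1144) and hindlimb alone (1342 and 1513), where fewer libraries or a stricter null enter by construction. Leaving out 1 library gave 1888 to 2291 higher and 2047 to 2333 lower, 0 to 7 stage calls, 0 limb calls and 0 to 34 calls between digits. No digit 1 library was among those left out. With stage and limb sets as a block, 2483 were higher (2397 shared with the unblocked fit) and 2551 lower (2461 shared), and 27 genes differed between digits. In the 8 digit 2 libraries with the pair as a block the counts were 2388 and 2256. Of 184 named genes 4 lost their call under each block, Krt15, Ihh, Mylpf and Dct under the first and Hoxc6, Dct, Tyms and Scx under the second. The lower bounds without the E17 forelimb distal library were computed after the values were seen, and for 6 of 8 genes they fell by more than 1.5 times. The following changed sign, and the cause was not tested. The melanocyte median was -0.12 at 5 CPM. The FGF median was -0.011 at E16 and -0.10 in forelimbs, and the Wnt median 0.014 in hindlimbs. Lef1 was 0.079 at E16 and 0.014 in hindlimbs, Col10a1 -0.87 at E16, Hoxa13 -0.043 at E16 and -0.0025 in forelimbs, Sox9 0.27 at E17, Krt79 0.18 in forelimbs and Ccl21a 0.94 in hindlimbs, none of which passed the test with all libraries. Leaving out 1 library moved the HoxC median between -0.0048 and 0.40, Col10a1 between -0.10 and 0.56 and Sox9 between -0.25 and 0.049. Depth is no limit for abundant genes, but 1 library per stage and limb leaves litter variation unmeasured.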

Other observations

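The groups below were chosen after their values were seen, so their counts are descriptions. Genes of metal and cystine handling were higher in the distal phalanx in 8 of 8 members. Of these, Mt4 stood at 0.192, 0.0405, 0.105 and 0.115 CPM in the middle libraries and entered the test only through distal libraries. Mt2, a metallothionein that binds zinc and copper, stood at 72.8, 49.9, 155 and 131 CPM in distal and 8.64, 6.09, 16.8 and 11.99 CPM in middle libraries (log2 fold change 3.18 ± 0.28, adjusted p = 2.81e-07). Slc39a8, an importer of zinc and manganese, stood at 109, 68.2, 135 and 118 CPM against 15.7, 18.1, 17.04 and 21.2 CPM (log2 fold change 2.54 ± 0.16, adjusted p = 1.14e-08). Slc7a11, the cystine importer, stood at 260, 221, 146 and 155 CPM against 55.5, 50.6, 49.8 and 42.4 CPM (log2 fold change 1.95 ± 0.14, adjusted p = 3.02e-08). In all 3 the lowest distal library lay above the highest middle one. The zinc exporter Slc30a1 (0.97 ± 0.06) and Gclc, the first enzyme of glutathione synthesis (1.21 ± 0.10), were higher too.

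Mast cell genes were lower in 5 of 7 tested members. Cpa3, the mast cell carboxypeptidase, stood at 8.90, 6.15, 18.8 and 17.8 CPM in distal and 70, 54.6, 148 and 107 CPM in middle libraries (log2 fold change -2.92 ± 0.28, adjusted p = 6.87e-07), and averaged 209 ± 53.3 CPM (SD, n = 4) in the proximal phalanx. Hdc, which makes histamine, stood at 10.9, 8.95, 29.9 and 32.7 CPM against 51.9, 41.8, 125 and 115 CPM (log2 fold change -2.09 ± 0.25, adjusted p = 4.89e-06). Both were lowest in the distal and highest in the proximal phalanx by mean. Mcpt4, another mast cell protease, did not pass (log2 fold change -0.57 ± 0.26, adjusted p = 0.104). Of 4 Notch target genes, Hey1 at 48.5, 52.6, 36.9 and 39.2 CPM against 10.6, 11.3, 10.03 and 11.01 CPM (log2 fold change 2.03 ± 0.15, adjusted p = 4.96e-08) and Hey2 (1.96 ± 0.37) were higher, and Hes1 (0.22 ± 0.13) and Heyl (0.40 ± 0.22) did not pass.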
